A study of Homo sapiens with 18 samples.

Results

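TMD8 cells given 150 nM JIB-04 were compared with TMD8 cells given the vehicle, across all genes, by bulk RNA sequencing. The comparison holds 6 of the 18 samples of the series: the 3 libraries of the 150 nM group and the 3 libraries of the DMSO group. TMD8 is an established human cell line derived from diffuse large B-cell lymphoma, of the activated B-cell-like kind, and was grown in RPMI medium. The DMSO group had 0.01% DMSO, and the treated group had 150 nM JIB-04. The remaining libraries are 3 of TMD8 at 500 nM JIB-04 and 9 of OCI-Ly1, a second diffuse large B-cell lymphoma line grown in IMDM, at DMSO, 150 nM and 500 nM, and they are used here only to place the 150 nM values. The libraries were made in technical triplicate from RNA depleted of ribosomal RNA. The labels give neither the treatment time nor a separate culture for each library, so the p-values measure the spread between these libraries, which may be technical. The comparison rests on 1 cell line, and between the lines the medium differed too.

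JIB-04 blocks demethylases of the Jumonji (JmjC) class. These enzymes use iron and 2-oxoglutarate to take methyl groups off histone lysines. Members of the KDM4 family act on histone H3 lysine 9, the mark that heterochromatin proteins bind. By its title, the series concerns how faithfully heterochromatin is kept in lymphoma, as a possible point of attack. Cells answer chemical stress through separate transcription programmes: ATF4 for amino-acid shortage and other triggers of the integrated stress response, HSF1 for unfolded cytosolic protein, MTF1 for free metal, and p53 for DNA damage. Activated B-cell-like lymphoma cells depend on B-cell receptor and NF-kB signalling and on the transcription factor IRF4.

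Library totals of estimated counts ranged from 13706043 to 20509500 over the 6 libraries. Levels are given as CPM, a gene's share of its library's counts after TMM scaling, with group values as mean ± SD of 3 libraries. Changes are log2 fold changes ± standard error from 1 fit of the 9 TMD8 libraries, and a gene rose or fell where its p-value, adjusted over all genes tested, was under 0.05. On the first principal component of the 9 TMD8 libraries, which held 67.9% of the variance, the DMSO libraries lay from -51.3 to -42.0, the 150 nM libraries from -4.52 to 13.9 and the 500 nM libraries from 40.2 to 42.0. DMSO library 1 and 150 nM library 3 lay farthest from their own groups, and no pair of libraries agreed within sampling noise. The 8 B-cell markers summed to 5390 to 5880 CPM with DMSO and 5560 to 5650 CPM at 150 nM. Within that sum MS4A1 (-0.30) and PAX5 (-0.18) fell, CD37 (0.20) rose and the rest were not called. The 5 T-cell markers summed to 3.3 to 3.98 CPM with DMSO and 3.92 to 4.27 CPM at 150 nM. Of these CD3D, CD3E and CD2 had at most 3 counts in every library, while CD3G had 26 to 49 counts and CD8A 21 to 35, and neither was called. In bulk RNA, fewer cells of a kind and less RNA per cell cannot be told apart.

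Of 15363 genes tested, 2955 rose at 150 nM (19.2%) and 3835 fell (25.0%), so 44.2% were called in either direction. Most changes were small. The median size among called genes was 0.358 on the log2 scale, and 4845 of them (71.4%) changed by less than 0.5. Large changes went mostly upward: 512 genes rose by at least 1 (3.33%) and 46 fell by at least 1 (0.299%), and by at least 2 there were 131 that rose and 2 that fell. The levels of the 3 treated libraries lay wholly above or below those of the 3 DMSO libraries for 7902 genes (51.4%). Of the called genes 43.5% rose, and this split moved with the scaling. With libraries scaled to their totals alone the share was 60.5%. It was 21.3% when log2(TPM + 1) was tested, 22.5% with a pseudocount of 0.1, and 67.9% on log2(TPM + 1) with TPM recomputed without the 10 most abundant genes. Counts given below beside a list for another scaling are from these fits. The median change over all genes was 0.0113 in the count fit and -0.0976 on log2(TPM + 1). The 10 most abundant genes held 54.3% to 62.1% of all TPM with DMSO and 64.8% to 68.2% at 150 nM, and MIR3687, a short RNA of the ribosomal spacer region, held 15.2% to 20.6%.

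**Figure D1:**
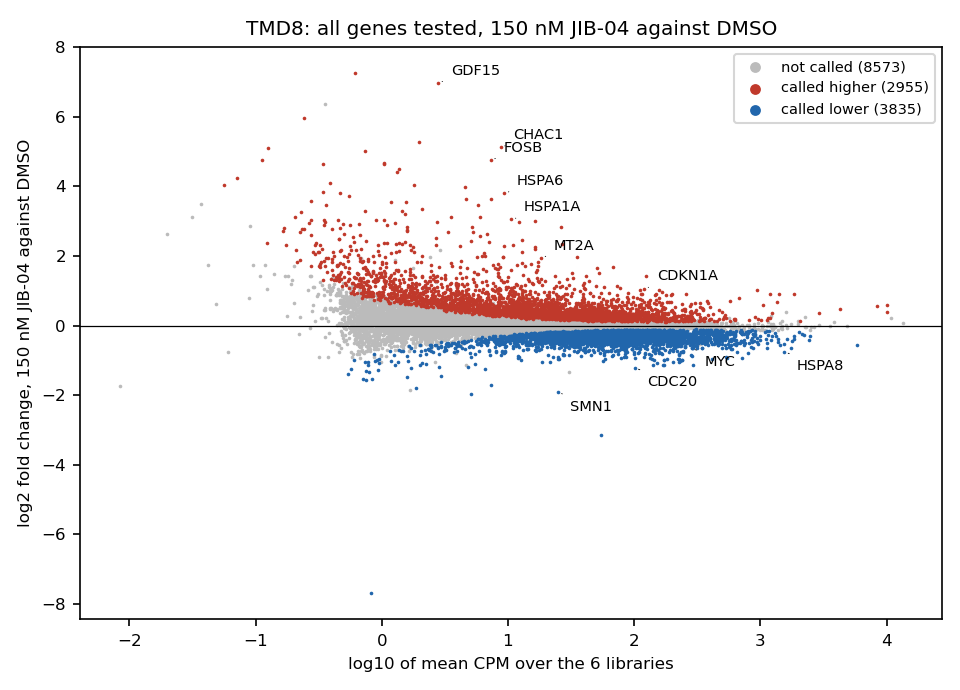
Each point is 1 of the genes tested in TMD8; the horizontal axis is the log10 of its mean CPM over the 6 libraries and the vertical axis its log2 fold change at 150 nM JIB-04 against DMSO. Red marks the 2955 genes called higher, blue the 3835 called lower and grey the rest; the points beyond 2 lie almost wholly on the upper side.

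The integrated stress response had the highest median change of the 50 gene lists examined. Of its 19 measured members 14 rose and 3 fell, with a median of 0.91 against 0.0113 over all genes. CHAC1, which breaks down glutathione, had 0.444, 0.336 and 0.654 CPM with DMSO and 15.4, 16.1 and 19.8 CPM at 150 nM. The groups did not overlap, and all 3 treated libraries were above 15 CPM where no DMSO library reached 1 CPM. Its change of 5.13 ± 0.19 (adjusted p = 1.38e-11), or 34.9-fold, was the largest rise among genes with no overlap between the groups, more than 3 counts in each library and at least 5 CPM at 150 nM. GDF15, a secreted stress cytokine, had 2 counts in the 3 DMSO libraries together and 283 counts at 150 nM, a ratio of 156 with a 95% counting interval from 42.9 to 1.3e+03. It met a naming rule that asks for few DMSO counts, so this interval is not independent support.

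ATF4, the transcription factor at the centre of this pathway, had 140.4, 136 and 137 CPM with DMSO and 239, 257 and 268 CPM at 150 nM, a change of 0.89 ± 0.05. DDIT3, the stress transcription factor also called CHOP, had 3.36, 3.7 and 3.92 CPM with DMSO and 14.9, 18.6 and 20.7 CPM at 150 nM, a change of 2.31 ± 0.13. For both genes every treated library was above every DMSO library. SESN2, an inhibitor of mTORC1 in amino-acid shortage, went from 2.71 ± 0.382 to 21.6 ± 2.85 CPM (2.99 ± 0.13), and CEBPB, a partner of ATF4 on DNA, went from 8.83 ± 0.627 to 44.8 ± 6.07 CPM (2.35 ± 0.10). TRIB3, a pseudokinase that ATF4 and CHOP induce, went from 21.7 ± 1.0 to 45.2 ± 2.47 CPM (1.06 ± 0.064). The remaining members that rose were VLDLR at 1.98, DDIT4 at 1.52, CREBRF at 1.42, PPP1R15A at 0.91, ATF3 at 0.71, EIF2AK3 at 0.41 and CEBPG at 0.15. Those that fell were parts of the sensing machinery: EIF2S1, the eIF2 subunit that the stress kinases phosphorylate, fell by 0.61, and the kinases EIF2AK1 and EIF2AK2 had changes of -0.31 and -0.24. PPP1R15B (0.032 ± 0.048) and EIF2AK4 (-0.097 ± 0.057) did not pass the test.

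The promoters of the list were searched for TTGCATCA, the composite site that ATF4 binds with C/EBP partners, on both strands of the 300 bases from 250 before to 50 after the gene start (RefSeq, GRCh38.p14). CHAC1 and PPP1R15B held it, 2 of 19 promoters (10.5%), against 252 of 27305 promoters of the table (0.923%). The stretch of the CHAC1 promoter is shown because this gene rose most by the rule above, and that of AARS (AARS1 in RefSeq) because the site was also found there in a tRNA synthetase gene that rose. The capitals mark the site, which starts 209 bases before the gene start in CHAC1 and 187 bases before it in AARS.
CHAC1, chr15:40953238-40953293, plus strand: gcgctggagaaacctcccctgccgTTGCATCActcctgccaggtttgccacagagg
AARS, chr16:70289662-70289717, minus strand: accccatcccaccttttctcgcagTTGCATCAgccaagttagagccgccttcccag
PPP1R15B holds the same letters and did not pass the test.

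Many genes of amino-acid supply were also called higher, though fewer on TPM values. Of 12 transporters measured 8 rose and 0 fell (median 0.27), against 3 higher and 0 lower on log2(TPM + 1) (median 0.12). SLC6A9, a glycine transporter, had 0.508, 0.729 and 0.805 CPM with DMSO and 6.24, 9.12 and 10.5 CPM at 150 nM, a change of 3.65 ± 0.24 (adjusted p = 4.87e-09). SLC7A11, the cystine importer, went from 25.7 ± 1.54 to 61.6 ± 3.48 CPM (1.27 ± 0.064), while its partner chain SLC3A2 changed by 0.32 ± 0.045. Of 15 genes of serine, asparagine and one-carbon synthesis 9 rose and 3 fell (median 0.31), against 7 higher and 3 lower on log2(TPM + 1) (median 0.072). ASNS, asparagine synthetase, had 26.1, 25.7 and 25 CPM with DMSO and 51.4, 56.4 and 55.1 CPM at 150 nM, a change of 1.09 ± 0.058, and the groups did not overlap. CTH, which makes cysteine, changed by 2.64 ± 0.15, ALDH1L2 by 2.46 ± 0.11 and PHGDH, the first enzyme of serine synthesis, by 1.44 ± 0.065. The members that fell were ALDH18A1 of proline synthesis at -0.68, MTHFD1 at -0.61 and SHMT1 at -0.24. MTHFD2 (-0.0072 ± 0.052) and SHMT2 (0.0092 ± 0.042) did not pass the test.

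The cytosolic tRNA synthetases, which load amino acids on tRNA, were split: 6 of 20 rose and 9 fell, with 7 higher and 7 lower without the 10 most abundant genes. WARS, for tryptophan, had 123, 109.9 and 107 CPM with DMSO and 181, 191 and 189.8 CPM at 150 nM (0.73 ± 0.052). AARS, for alanine, had 133, 123 and 128 CPM with DMSO and 171, 175 and 180.3 CPM at 150 nM (0.46 ± 0.045). At the other end FARSB, a chain of the phenylalanine enzyme, had 128, 117 and 117 CPM with DMSO and 85, 82.5 and 83 CPM at 150 nM (-0.53 ± 0.048). In none of these did the groups overlap. The letters TTGCATCA were held by 6 of the 13 synthetase genes with a promoter in the table: AARS, MARS and CARS, which rose, and IARS, NARS and TARS, which did not pass the test. With 13 of 20 genes matched, a share over the list would be void. The mitochondrial synthetases had no member that rose and 10 of 17 that fell (median -0.19; 1 higher and 5 lower without the 10 most abundant genes), with IARS2 at -0.48.

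Genes of the endoplasmic reticulum unfolded protein response also went both ways, 10 of 21 up and 6 down, with a median of 0.12 that was -0.024 on log2(TPM + 1), where 5 were higher and 6 lower. Those that rose included the sensor and degradation genes ERN1 (1.37 ± 0.12), DNAJB9 (1.22 ± 0.093), EDEM1 (1.02 ± 0.047) and HERPUD1 (0.78 ± 0.052). EDEM1, which marks misfolded glycoproteins for disposal, had 103, 105 and 106 CPM with DMSO and 200.5, 219.7 and 214 CPM at 150 nM. HSPA5, the main lumenal chaperone, was 324 ± 12.9 CPM with DMSO and 301 ± 8.02 CPM at 150 nM (-0.11 ± 0.046, adjusted p = 0.0635), and CALR and CANX fell, at -0.30 and -0.44.

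Most heat shock genes fell and a few HSP70 genes rose. Of 20 measured 3 rose and 14 fell, and the median was -0.41. The 3 that rose are stress-inducible HSP70 genes. HSPA6 had 1.65, 0.953 and 1.31 CPM with DMSO and 8.49, 18.2 and 25.7 CPM at 150 nM, a change of 3.8 ± 0.35 (adjusted p = 2.33e-07). HSPA1A had 1.27, 2.8 and 2.87 CPM with DMSO and 12.2, 16.6 and 28.2 CPM at 150 nM (3.05 ± 0.28). HSPA1B had 82.2, 90 and 87.8 CPM with DMSO and 119, 147 and 165 CPM at 150 nM (0.74 ± 0.082). The treated libraries did not overlap with DMSO for any of them, and library 3 was the highest of the treated libraries for each. HSPA1A and HSPA1B are near-identical copies, so the division of reads between them is uncertain.

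Abundant chaperones were among those that fell, some of which heat shock is known to induce, such as HSP90AA1 and HSPH1. HSPA8, the main cytosolic HSP70, had 2110.2, 1835 and 1882 CPM with DMSO and 1274, 1161 and 1036 CPM at 150 nM, a change of -0.75 ± 0.068, and every treated library was below every DMSO library. HSP90AA1 went from 1715 ± 124 to 1161 ± 72 CPM, HSP90AB1 from 2767 ± 179 to 2074 ± 128 CPM, HSPD1 of the mitochondrial chaperonin from 1014 ± 28.4 to 668 ± 48.1 CPM and HSPH1 from 608 ± 39.1 to 393 ± 38.2 CPM. Their changes were -0.56, -0.42, -0.60 and -0.63. DNAJB1 (-0.022 ± 0.046), BAG3 (0.026 ± 0.095) and SERPINH1 (-0.062 ± 0.064) did not pass the test, and HSF1 itself had -0.12 ± 0.046. At 500 nM HSPA6 was at 216 ± 9.69 CPM, HSPA1A at 196 ± 10.1 CPM and, though not called at 150 nM, DNAJB1 at 162 ± 4.71 CPM from 86 ± 1.98 CPM with DMSO and 84.8 ± 0.958 CPM at 150 nM.

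Pairs of the heat shock element unit, GAANNTTC or TTCNNGAA, were found in 8 of 19 promoters of the list (42.1%) and in 3738 of 27305 promoters of the table (13.7%). Both letter pairs read the same on either strand. The 8 were those of HSPA6, HSPA1A and HSPA1B, which rose, of HSPA8, DNAJA1, HSPB1 and CHORDC1, which fell, and of SERPINH1, which did not pass the test. The stretches below are shown because genes that moved in opposite directions carry the same letters close to the gene start. The capitals mark the pairs of units, and overlapping pairs run together.
HSPA6, chr1:161524442-161524502, plus strand: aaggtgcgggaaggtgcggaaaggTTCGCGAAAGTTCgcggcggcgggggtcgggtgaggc
HSPA1A, chr6:31815413-31815468, plus strand: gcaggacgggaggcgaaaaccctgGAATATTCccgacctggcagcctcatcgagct
HSPA8, chr11:123062155-123062215, minus strand: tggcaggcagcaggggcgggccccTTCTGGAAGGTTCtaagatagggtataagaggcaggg
CHORDC1, chr11:90223050-90223133, minus strand: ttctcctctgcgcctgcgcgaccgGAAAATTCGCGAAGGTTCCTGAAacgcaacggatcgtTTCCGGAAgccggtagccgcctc
HSPA6 and HSPA8 each have 2 overlapping pairs of units in this stretch, from 74 and 55 bases before the gene start.

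Metal-responsive genes rose in 7 of 9 members, with 1 that fell and a median of 0.58. MT2A, a metallothionein, had 7.17, 8.07 and 7.75 CPM with DMSO and 23.1, 26.7 and 37.5 CPM at 150 nM, a change of 1.94 ± 0.15 (adjusted p = 4.36e-08). MT1G went from 0.301 ± 0.226 to 2.76 ± 0.67 CPM, MT1E from 0.452 ± 0.105 to 2.31 ± 0.36 CPM, MT1F from 3.63 ± 0.21 to 5.37 ± 1.08 CPM and MT1X from 9.73 ± 1.55 to 12.8 ± 0.933 CPM. MT1H had 4 counts in the 3 DMSO libraries together and 102 at 150 nM, a ratio of 28.2 with a 95% counting interval from 10.7 to 105. It met the same naming rule as GDF15, so the same limit holds. The treated libraries were above the DMSO libraries for each of MT2A, MT1F and MT1X, although reads of these similar genes may be split unevenly. Without DMSO library 1 and 150 nM library 3 the change of MT1F was 0.403 (adjusted p = 0.0696). On log2(TPM + 1) MT1X did not pass, at 0.25 (adjusted p = 0.173). SLC30A1, the zinc exporter of the plasma membrane, changed by 0.33 ± 0.07 (0.153 on log2(TPM + 1), adjusted p = 0.253), and SLC39A10, a zinc importer, by -0.60 ± 0.062. MTF1, the factor that reads metal, did not pass the test (-0.13 ± 0.063). The part of the MT2A promoter with the core of the metal response element, TGCACNC, is shown because MT2A is the metallothionein gene with the most counts at 150 nM. The capitals mark 3 copies on either strand, which start 88, 54 and 8 bases before the gene start; 6 of the 9 genes had a promoter in the table, too few for a share.
MT2A, chr16:56608472-56608583, plus strand: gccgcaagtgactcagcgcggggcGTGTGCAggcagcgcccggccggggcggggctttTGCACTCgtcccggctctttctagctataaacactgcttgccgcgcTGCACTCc
The core alone was found in 3246 of 27305 promoters of the table (11.9%).

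Other stress and nutrient lists were mixed. Of 12 NRF2 antioxidant genes 3 rose and 6 fell (4 higher and 2 lower without the 10 most abundant genes); HMOX1, heme oxygenase, had 60.5, 55.2 and 55.8 CPM with DMSO and 66.3, 67.7 and 67.3 CPM at 150 nM (0.23 ± 0.051), TXN changed by -0.50 ± 0.078 and PRDX1 by -0.46 ± 0.057. Without DMSO library 1 and 150 nM library 3 TXN was at -0.293. HMOX1 did not pass on log2(TPM + 1), at 0.0755 (adjusted p = 0.605). Of 9 genes of iron handling 1 rose and 4 fell, with 2 higher and 1 lower without the 10 most abundant genes. The 1 that rose was TFRC, the transferrin receptor, with 1136, 1077 and 1066 CPM with DMSO and 1456, 1439 and 1284 CPM at 150 nM (0.35 ± 0.055); FTL, ferritin light chain, was at -0.23 and IREB2, an iron regulatory protein, at -0.25. Without 150 nM library 3 IREB2 was at -0.163, and without that library and DMSO library 1 FTL was at -0.133. TFRC did not pass on log2(TPM + 1), at 0.191 (adjusted p = 0.189). Among 22 hypoxia-inducible genes 5 rose and 9 fell, with 8 higher and 7 lower without the 10 most abundant genes. NDRG1 had 2.98, 3.64 and 3.47 CPM with DMSO and 9.36, 9.05 and 11.5 CPM at 150 nM (1.57 ± 0.13) and VEGFA, the angiogenic factor, changed by 0.53 ± 0.056, whereas glycolytic members fell, with LDHA going from 1008 ± 33 to 587 ± 67.4 CPM (-0.78 ± 0.065), ENO1 at -0.47 and PGK1 at -0.45. HIF1A did not pass the test (0.079 ± 0.054). Of 5 genes of the aryl hydrocarbon receptor CYP1A1, AHRR and TIPARP rose, at 1.01, 0.36 and 0.26, while the receptor AHR fell from 421 ± 24.6 to 272 ± 39.8 CPM (-0.63 ± 0.075). On log2(TPM + 1) AHRR (0.197, adjusted p = 0.11) and TIPARP (0.0932, adjusted p = 0.567) did not pass.

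**Figure D2:**
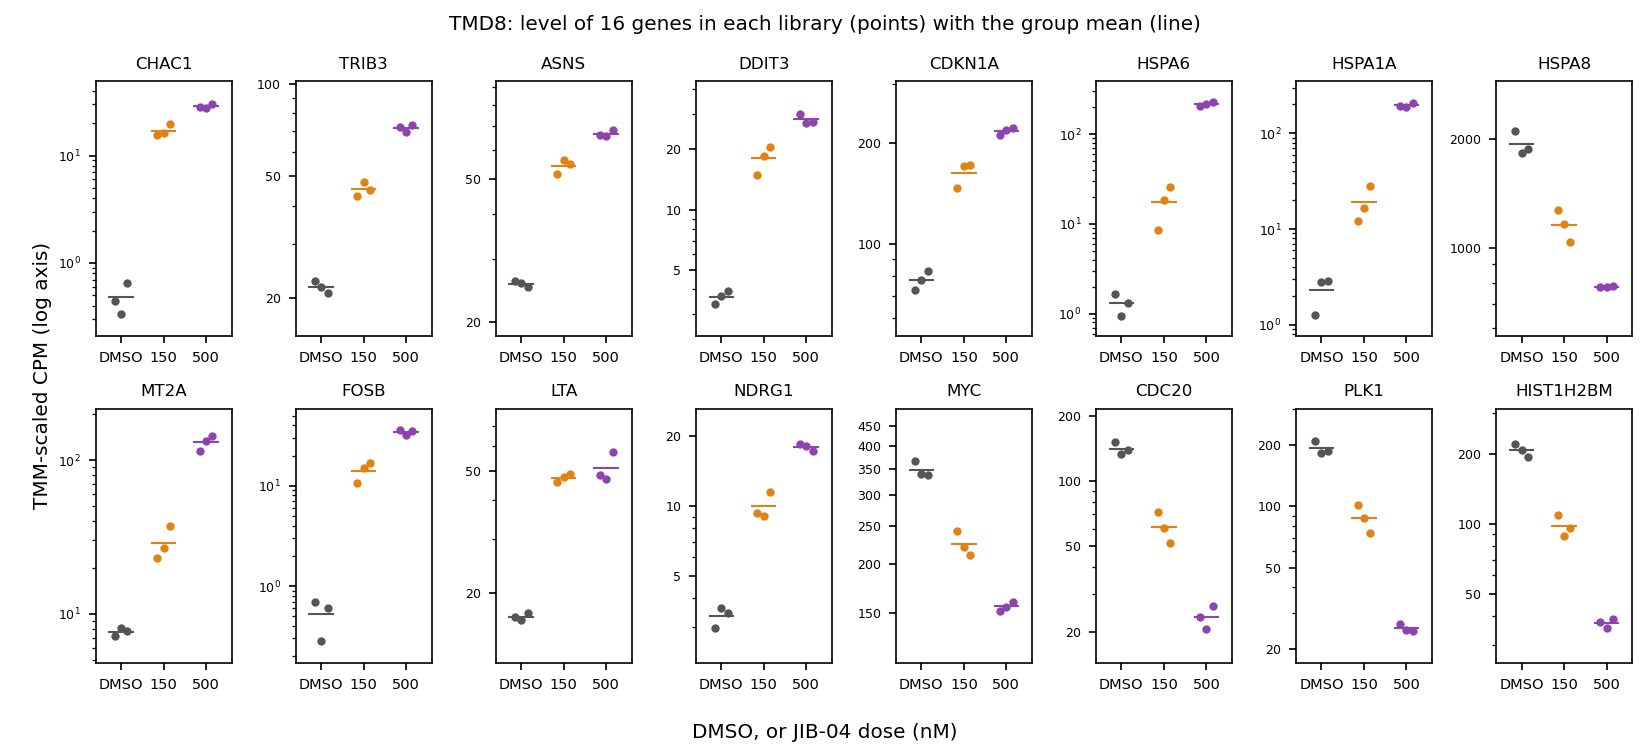
CPM of 16 genes on a log axis in each TMD8 library (points) with the group mean (line), for DMSO (grey), 150 nM (orange) and 500 nM JIB-04 (purple). For each gene drawn the 150 nM points lie apart from the DMSO points and the 500 nM points lie further the same way, except LTA, whose points at the 2 doses overlap.

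Targets of p53 rose almost throughout, 24 of 27 against 1 that fell, with a median of 0.68. CDKN1A, the p21 inhibitor of cyclin-dependent kinases, had 72.7, 77.9 and 82.6 CPM with DMSO and 146, 169.8 and 172 CPM at 150 nM, a change of 1.07 ± 0.062 (adjusted p = 1.31e-09). PHLDA3, an inhibitor of AKT, had 3.11, 4.09 and 3.77 CPM with DMSO and 24.8, 30.6 and 32.5 CPM at 150 nM (3.0 ± 0.12). GADD45A, a DNA damage and growth arrest gene, had 3.49, 3.36 and 2.77 CPM with DMSO and 12.4, 16 and 17.6 CPM at 150 nM (2.28 ± 0.14). The treated and DMSO libraries did not overlap for any of these. MDM2, the ubiquitin ligase of p53, rose less, from 263 ± 4.87 to 361 ± 22.7 CPM (0.46 ± 0.049), and the death receptors FAS and TNFRSF10B changed by 1.73 ± 0.10 and 0.95 ± 0.058. Of the list C12orf5 (0.11 ± 0.049) and EDA2R (-0.22 ± 0.46) did not pass the test.

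The BCL2 family, which sets the threshold for apoptosis, had 6 of 14 members up and 3 down. Without the 10 most abundant genes 8 were higher and 1 lower, and on log2(TPM + 1) 4 were higher and 3 lower. The BH3-only genes HRK and PMAIP1 rose. HRK had 2.73, 2.52 and 2.26 CPM with DMSO and 9.29, 8.56 and 13.6 CPM at 150 nM (2.1 ± 0.17). PMAIP1, or NOXA, had 48, 44.4 and 43.7 CPM with DMSO and 94.1, 102 and 105 CPM at 150 nM (1.15 ± 0.055). BBC3, or PUMA, counted here with the p53 targets, went from 24.3 ± 4.0 to 76.4 ± 7.75 CPM (1.65 ± 0.094). The survival gene BCL2 rose too, with 218, 225 and 222 CPM with DMSO and 327, 345 and 353 CPM at 150 nM (0.62 ± 0.046), and no treated library overlapped with DMSO. BID fell from 107 ± 8.0 to 61.3 ± 5.74 CPM (-0.80 ± 0.067), MCL1 had -0.14 ± 0.045, and BCL2L11, or BIM, did not pass the test (-0.097 ± 0.045).

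Immediate-early genes of the AP-1, EGR and related families rose in 16 of 21 members and fell in 2 (median 0.49), against 10 higher and 2 lower on log2(TPM + 1). FOSB had 0.698, 0.28 and 0.604 CPM with DMSO and 10.5, 14.9 and 17 CPM at 150 nM, a change of 4.75 ± 0.24 (adjusted p = 3.39e-10). FOS had 1.27, 1.01 and 1.46 CPM with DMSO and 7.4, 10.3 and 14.3 CPM at 150 nM (3.12 ± 0.24). No DMSO library exceeded 1.46 CPM for either gene, and each treated library was above 7 CPM. The nuclear receptors NR4A1 and NR4A3 changed by 2.56 ± 0.15 and 1.83 ± 0.11, the phosphatase DUSP1 by 1.69 ± 0.14, and JUND, a JUN family gene, went from 113 ± 6.04 to 222 ± 24.9 CPM. JUN itself changed by 0.21 ± 0.057. The 2 that fell were EGR2 (-0.37 ± 0.057) and KLF6 (-0.42 ± 0.05). Outside the lists, RHOB, a small GTPase, went from 1.08 ± 0.0572 to 13.6 ± 3.34 CPM (3.65 ± 0.20) and GADD45G from 0.726 ± 0.281 to 6.42 ± 0.975 CPM (3.11 ± 0.21).

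Cell division genes fell. All 38 mitotic genes measured fell, with changes from -1.21 to -0.22 and a median of -0.67. CDC20, the activator of the anaphase-promoting complex, had 150.2, 133 and 139 CPM with DMSO and 71.5, 60.4 and 51.6 CPM at 150 nM, a change of -1.21 ± 0.088 (adjusted p = 1.71e-08). PLK1, the mitotic kinase, had 209, 183 and 186 CPM with DMSO and 101, 88 and 73.8 CPM at 150 nM (-1.14 ± 0.081). CCNB1, cyclin B1, had 208, 184 and 184 CPM with DMSO and 109.6, 97.6 and 81.5 CPM at 150 nM (-1.0 ± 0.079). Every treated library was below every DMSO library for these genes, and treated library 3 was the lowest. KIF20A, AURKA, HMMR, AURKB and BUB1 fell by 1.02, 0.89, 0.85, 0.84 and 0.83 on the log2 scale. At 500 nM CDC20 was 23.5 ± 2.95 CPM and PLK1 25.1 ± 1.0 CPM.

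The cell-cycle homology region TTTGAA, which the DREAM and B-MYB complexes read, was searched in the same promoters on both strands. It was found in 21 of 33 mitotic promoters (63.6%) and in 4212 of 27305 promoters of the table (15.4%). The stretches before the gene start are shown for CDC20 and PLK1, which fell most, and for 3 further genes in which the letters lie within 30 bases of the start. The capitals mark the letters; HMMR has a tandem pair.
CDC20, chr1:43358892-43358945, plus strand: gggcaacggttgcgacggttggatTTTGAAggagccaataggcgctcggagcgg
PLK1, chr16:23678836-23678888, plus strand: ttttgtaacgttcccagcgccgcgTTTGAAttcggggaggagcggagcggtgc
HMMR, chr5:163460580-163460631, plus strand: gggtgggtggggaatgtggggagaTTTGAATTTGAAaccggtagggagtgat
CENPA, chr2:26786014-26786055, plus strand: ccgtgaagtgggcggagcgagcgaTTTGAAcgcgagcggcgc
CCNB2, chr15:59105093-59105145, plus strand: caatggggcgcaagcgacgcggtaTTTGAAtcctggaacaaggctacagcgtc
The letters start 65, 29, 28, 18 and 29 bases before the gene start in these genes.

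DNA replication genes fell in 31 of 45 members and rose in 1 (median -0.26; 19 lower and 3 higher without the 10 most abundant genes). MCM4, of the replicative helicase, had 454, 421 and 426 CPM with DMSO and 306, 305 and 290.0 CPM at 150 nM (-0.53 ± 0.047), and at 500 nM it was 304 ± 8.68 CPM (0.018 ± 0.048 against 150 nM). GINS1 changed by -0.53 ± 0.054 and RFC5 by -0.49 ± 0.073. Cohesin and condensin genes fell in 16 of 20 (8 lower and 2 higher without the 10 most abundant genes), with SMC4 at -0.60 and NCAPG at -0.56. The letters TTTCGCGC of an E2F site were found in 5 of 38 replication promoters (13.2%) and in 149 of 27305 of the table (0.546%). Among cyclins and G1 regulators 4 of 23 rose and 9 fell, with 7 higher and 6 lower without the 10 most abundant genes. CCNA2, cyclin A2, went from 136 ± 14.3 to 78.2 ± 6.59 CPM (-0.80 ± 0.07) and CCND2, a D-type cyclin, from 1124 ± 22.7 to 787 ± 64.6 CPM (-0.51 ± 0.056), while CCNE2 rose from 19.2 ± 0.701 to 24.6 ± 2.23 CPM (0.37 ± 0.076; on log2(TPM + 1) it did not pass, at 0.167).

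Replication-dependent histones, whose transcripts are made in S phase, fell in 58 of 63 genes and rose in 3 (median -0.79). HIST1H2AJ had 448, 382 and 385 CPM with DMSO and 216, 179 and 159 CPM at 150 nM (-1.14 ± 0.084), HIST1H2BL changed by -1.13 ± 0.08, HIST1H2BH by -1.13 ± 0.073 and HIST1H2BM by -1.08 ± 0.064. Together the histone genes held 1.39% to 1.45% of all counts with DMSO and 0.777% to 0.941% at 150 nM, with no overlap. Many of these genes are near-identical, so the split between them is uncertain. Of the 9 replication-independent histones 2 rose and 5 fell, with 3 in each direction without the 10 most abundant genes. H1F0, the linker histone of resting cells, rose from 0, 0 and 0.101 to 0.581, 0.276 and 0.694 CPM, a low level in every library, and H1FX changed by 0.32 ± 0.084. H2AFZ fell from 311 ± 5.49 to 225 ± 21.7 CPM (-0.47 ± 0.057). Without DMSO library 1 and 150 nM library 3 H1FX did not pass (0.186, adjusted p = 0.0642).

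Growth and biosynthesis genes fell together by small amounts. All 40 nucleolar ribosome biogenesis genes fell, from -0.60 to -0.22 (median -0.41), against 36 lower and 0 higher without the 10 most abundant genes. RRP1B had 258, 249.7 and 247 CPM with DMSO and 183, 163 and 152 CPM at 150 nM (-0.60 ± 0.058), and NOP16, MRTO4 and UTP15 fell by 0.58, 0.57 and 0.52 on the log2 scale. MYC, a transcription factor that drives such genes, had 367, 339.6 and 337 CPM with DMSO and 242, 221 and 210.0 CPM at 150 nM, a change of -0.64 ± 0.054 (adjusted p = 1.02e-07), with no overlap between groups. The E-box CACGTG, which MYC and other factors bind, was found in 13 of 34 promoters of the list (38.2%) and in 2030 of 27305 of the table (7.43%). The MYC network as a whole had 5 of 11 members up and 3 down, but 2 higher and 3 lower on log2(TPM + 1). Its antagonists MXD4 and MXD1 were among those that rose (0.56 ± 0.093 and 0.53 ± 0.095), and MXD1 did not pass on log2(TPM + 1), at 0.229 (adjusted p = 0.0778).

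Nucleotide synthesis genes fell in 22 of 23 (median -0.40), with PPAT, the first enzyme of purine synthesis, going from 91.5 ± 3.86 to 62.7 ± 6.34 CPM. Proteasome genes fell in 39 of 42 (median -0.34), mitochondrial ribosomal proteins in 64 of 76 (median -0.32), and nuclear genes of the respiratory chain in 65 of 81, with 2 that rose (median -0.31). Without the 10 most abundant genes the numbers lower in these lists, nucleotide synthesis first, were 19, 30, 43 and 45. Those higher were 1, 1, 0 and 5, and the medians -0.266, -0.224, -0.185 and -0.179. Examples are PSMA3 (-0.57 ± 0.065), MRPL47 (-0.77 ± 0.077) and COX7B (-0.59 ± 0.064). Cytosolic ribosomal proteins moved little: 21 of 83 fell, a share near that of all genes, and 2 rose, with a median of -0.062 that was 0.024 when libraries were scaled to their totals alone, with 10 higher and 4 lower. RPS27L, a p53-responsive member, rose from 28.7 ± 1.2 to 44.2 ± 2.01 CPM (0.62 ± 0.063).

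Sterol and fatty-acid synthesis fell in 20 of 30 genes and rose in 2 (median -0.28). Without the 10 most abundant genes 15 were lower and 4 higher (median -0.15). SREBF1, a master regulator of lipid synthesis, had 32.3, 35 and 33.1 CPM with DMSO and 18.7, 17.3 and 16.3 CPM at 150 nM (-0.95 ± 0.074). FASN, fatty acid synthase, had 712, 729 and 717 CPM with DMSO and 497, 453 and 417 CPM at 150 nM (-0.66 ± 0.055). LSS, lanosterol synthase, rose against its pathway, with 220.0, 247 and 245 CPM with DMSO and 347, 384 and 396 CPM at 150 nM (0.66 ± 0.057), and no library of one group reached the other.

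**Figure D3:**
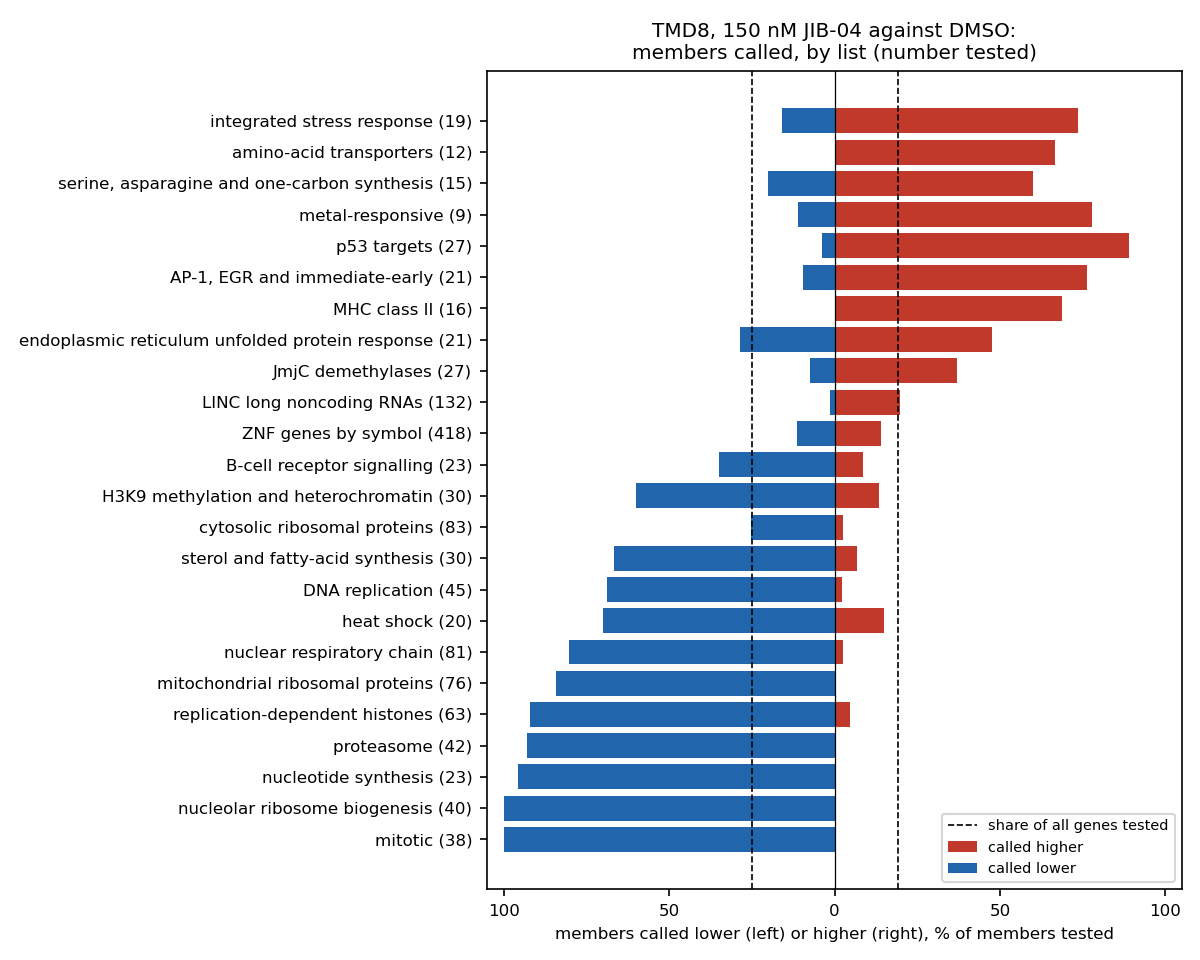
For 24 gene lists, the share of members tested that were called higher (red, right) or lower (blue, left) at 150 nM, with the number tested in brackets and dashed lines at the shares of all genes tested (19.2% higher, 25.0% lower). The mitotic and ribosome biogenesis lists reach 100% on the lower side, and p53 targets have the highest share on the upper side among the lists drawn.

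The JmjC list, which holds members of the demethylase class that JIB-04 inhibits and other JmjC proteins, changed by small amounts in RNA. Of 27 measured 10 rose and 2 fell, and the median of 0.016 was -0.10 on log2(TPM + 1), where 2 were higher and 3 lower. KDM4A had 64.9, 62.3 and 65.9 CPM with DMSO and 72.8, 75.4 and 79.7 CPM at 150 nM (0.24 ± 0.051, adjusted p = 0.000943). KDM4B had 73.7, 77.3 and 76.5 CPM with DMSO and 81.1, 82.9 and 78.4 CPM at 150 nM (0.09 ± 0.048, adjusted p = 0.137). KDM4C had 82.3, 73.2 and 71.6 CPM with DMSO and 83.8, 81.7 and 88 CPM at 150 nM (0.16 ± 0.056, adjusted p = 0.0258). The KDM4C libraries of the groups overlapped. KDM4C lost its call without DMSO library 2 (adjusted p = 0.101), without DMSO library 3 (0.133), without 150 nM library 3 (0.0511) and with DESeq2 (0.0564). KDM4B passed without 150 nM library 3, at 0.142 (adjusted p = 0.0422), and with libraries scaled to their totals alone, at 0.175. On log2(TPM + 1) KDM4A was at 0.0762 (adjusted p = 0.583) and KDM4C at 0.00799 (adjusted p = 0.966). The largest rise was that of KDM6B, an H3 lysine 27 demethylase, with 54.2, 55.3 and 55.7 CPM with DMSO and 80, 91 and 106 CPM at 150 nM (0.75 ± 0.073), followed by JHDM1D (0.57 ± 0.073). The 2 that fell, MINA and JMJD6, are JmjC hydroxylases, at -0.45 and -0.21.

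Genes of H3K9 methylation and heterochromatin fell more often than they rose, 18 against 4 of 30 (median -0.23). The lean was weaker without the 10 most abundant genes, where 12 were lower and 8 higher (median -0.096). LBR, the lamin B receptor that holds heterochromatin at the nuclear envelope, had 229.8, 206 and 212 CPM with DMSO and 143, 139 and 118 CPM at 150 nM (-0.70 ± 0.062). LMNB1 changed by -0.58 ± 0.052, and CBX3, or HP1 gamma, went from 198 ± 8.97 to 138 ± 11 CPM (-0.53 ± 0.056). The H3K9 methyltransferases SUV39H1 and SUV39H2 fell, with SUV39H1 at 44.2, 41 and 44.9 CPM with DMSO and 31.6, 32.7 and 28.5 CPM at 150 nM, a change of -0.49 ± 0.066, and SUV39H2 at -0.38. EHMT2 (-0.23 ± 0.05) and TRIM28 (-0.26 ± 0.052) fell by less, and SETDB1 did not pass the test (-0.091 ± 0.051). PRDM2 rose from 285 ± 22.5 to 402 ± 39.3 CPM (0.50 ± 0.068). UHRF1, HELLS, CDCA7 and DNMT1 of DNA methylation upkeep, which are known to be high in S phase, were at -0.36, -0.25, -0.51 and -0.21.

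Polycomb genes had 8 of 25 up and 12 down, a median of -0.12 that was 0.0057 on log2(TPM + 1) without the 10 most abundant genes, where 9 were higher and 3 lower. CBX7 changed by 1.03 ± 0.12, while PHF19 fell from 178 ± 0.282 to 112 ± 8.25 CPM (-0.67 ± 0.054) and EZH2 was at -0.16. Of 418 ZNF genes 59 rose and 47 fell, with a median of 0.036 that was -0.077 on log2(TPM + 1). Both shares, 14.1% and 11.2%, are below those of all genes, and the balance turned with the scaling, with 10 higher and 55 lower on log2(TPM + 1) and 109 higher and 11 lower without the 10 most abundant genes. ZNF485, one of them, had 604, 1639 and 1559 CPM with DMSO and 2551, 2505 and 2141 CPM at 150 nM, a change of 0.92 ± 0.22. DMSO library 1 was far below the other DMSO libraries, and without it the change was 0.583, with the groups still apart. Long noncoding LINC genes rose in 26 of 132 and fell in 2, and antisense RNAs rose in 41 of 248 and fell in 9. The shares that rose, 19.7% and 16.5%, stand beside 19.2% of all genes. There were 8 LINC genes higher and 4 lower on log2(TPM + 1), and 22 antisense RNAs higher and 18 lower. TIPARP-AS1 (1.54 ± 0.18) and SLC7A11-AS1 (1.05 ± 0.20) were among the antisense RNAs that rose, and since the counting is not stated to use strand, their reads cannot be told from those of their overlapping partner genes.

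**Figure D4:**
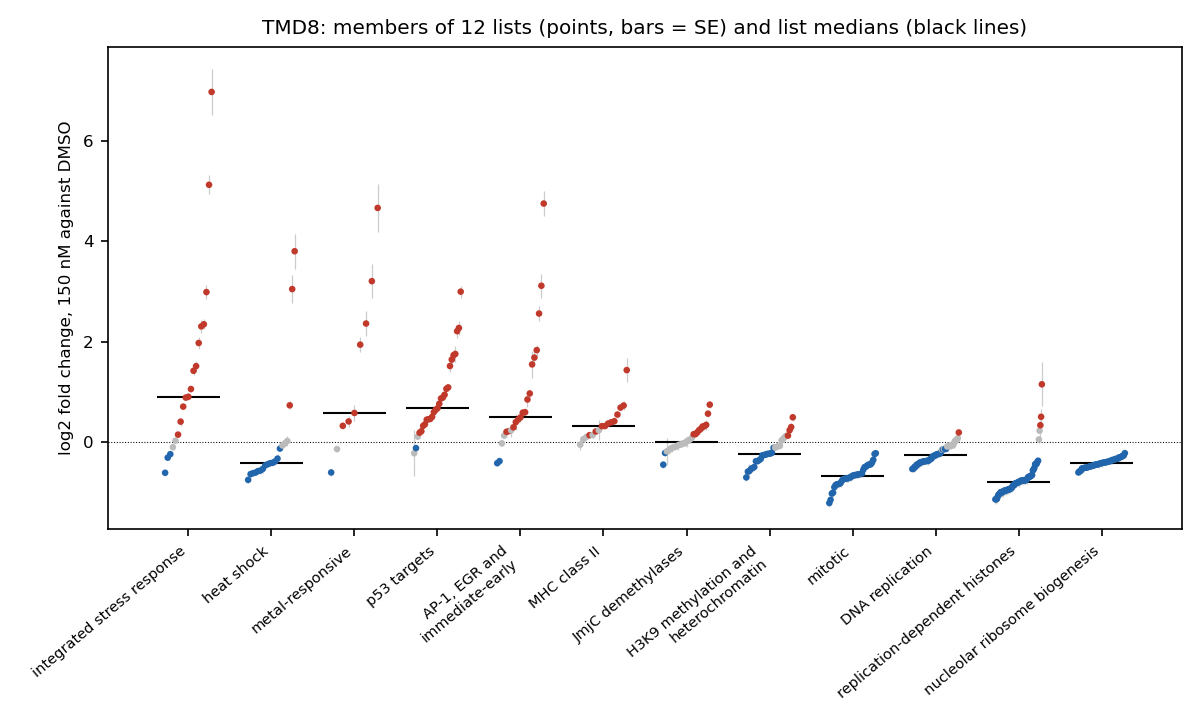
Log2 fold change at 150 nM of each tested member of 12 lists (points, sorted within a list; red called higher, blue called lower, grey not called; bars are standard errors) with the list medians as black lines. The integrated stress response, heat shock, metal-responsive, p53 and AP-1 lists have members beyond 2, whereas the mitotic and ribosome biogenesis lists lie wholly below 0.

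Of 23 components of B-cell receptor signalling 2 rose and 8 fell (median -0.11, or 0.023 on log2(TPM + 1) without the 10 most abundant genes, where 9 were higher and 3 lower). The number called in either direction is close to the 44.2% of all genes. MYD88, the adaptor of Toll-like receptors, had 102, 91.3 and 87.7 CPM with DMSO and 68.7, 68.8 and 63.1 CPM at 150 nM (-0.48 ± 0.058). SYK, the proximal kinase, had 694, 636 and 647 CPM with DMSO and 510.0, 507 and 465 CPM at 150 nM (-0.42 ± 0.051). BTK, downstream of it, changed by -0.29 ± 0.056, or -0.152 without DMSO library 1 and 150 nM library 3. CD79A (0.00024 ± 0.049) and CD79B (0.093 ± 0.046) did not pass the test. INPP5D, or SHIP1, a phosphatase that restrains the pathway, rose from 153 ± 7.84 to 193 ± 9.91 CPM (0.34 ± 0.051), though on log2(TPM + 1) its value was 0.177 (adjusted p = 0.21).

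Of 22 B-cell transcription factors 4 rose and 7 fell, with 0 higher and 7 lower on log2(TPM + 1) and 6 higher and 4 lower without the 10 most abundant genes. The shares that rose and fell, 18.2% and 31.8%, stand beside 19.2% and 25.0% of all genes. IRF4 had 2902, 2655 and 2647 CPM with DMSO and 2364, 2165 and 2078 CPM at 150 nM (-0.31 ± 0.058, adjusted p = 0.000291), with all treated libraries below DMSO. Without DMSO library 1 and 150 nM library 3 the change of IRF4 was -0.198. IKZF1, or Ikaros, changed by -0.48 ± 0.056 and BATF, which pairs with IRF4 on DNA, by -0.37 ± 0.051. BCL6, the germinal-centre repressor, did not pass the test, with 50, 44 and 45 CPM with DMSO and 45.2, 45.7 and 49.2 CPM at 150 nM (0.016 ± 0.062). PRDM1, the plasma-cell regulator, changed by 0.18 ± 0.047. The 5 markers of activated B cells summed to 4240 to 4570 CPM with DMSO and 3270 to 3690 CPM at 150 nM. Of these IRF4, BATF, CCND2 and IL10 fell and FOXP1 was not called (0.11 ± 0.053). Those of germinal-centre B cells summed to 134 to 137 CPM and 131 to 136 CPM, a sum that hides opposite changes. LMO2 fell (-0.34 ± 0.076), S1PR2 rose (0.38 ± 0.095), MYBL1 was not called and MME was not tested. On log2(TPM + 1) S1PR2 did not pass, at 0.207 (adjusted p = 0.114).

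NF-kB subunits and feedback genes had 9 of 22 up and 5 down, but 2 higher and 5 lower on log2(TPM + 1). REL changed by 0.52 ± 0.058 and NFKBIE by 0.57 ± 0.048; BIRC3 fell from 101 ± 8.08 to 75.8 ± 8.11 CPM (-0.42 ± 0.071, or -0.242 without DMSO library 1 and 150 nM library 3) and NFKBIA was at -0.28. TNFAIP3, or A20, did not pass the test (-0.0031 ± 0.049). Among B-cell cytokines and chemokines 5 of 15 rose and 7 fell, with 6 higher and 5 lower without the 10 most abundant genes. The lymphotoxins LTA and LTB rose. LTA had 16.6, 16.3 and 17.2 CPM with DMSO and 45.8, 47.5 and 48.7 CPM at 150 nM (1.5 ± 0.077). LTB had 4.44, 9.59 and 10.8 CPM with DMSO and 23.9, 24.4 and 28.7 CPM at 150 nM (1.61 ± 0.17). TNF, their neighbour in the genome, had 76.6, 70.2 and 67.5 CPM with DMSO and 119, 128 and 130.2 CPM at 150 nM (0.82 ± 0.054). The treated libraries were above the DMSO libraries for all of these. IL10 fell from 45.5 ± 1.59 to 38.6 ± 0.436 CPM (-0.24 ± 0.064) and CXCL10 from 21.8 ± 2.5 to 13.6 ± 2.49 CPM (-0.69 ± 0.11, or -0.436 without the same pair of libraries).

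Antigen presentation genes rose more often than they fell. MHC class II and its regulators had 11 of 16 members up and 0 down (median 0.32). CIITA, the master regulator of the class, had 119, 123 and 119 CPM with DMSO and 185, 193 and 204 CPM at 150 nM (0.69 ± 0.048, adjusted p = 1.09e-08). HLA-DQA1 changed by 0.73 ± 0.085, HLA-DMA by 0.55 ± 0.077 and HLA-DRA by 0.22 ± 0.052, while CD74, the invariant chain, did not pass the test (0.14 ± 0.057). In MHC class I 6 of 12 rose and 1 fell, with a median of 0.16 that was -0.0027 on log2(TPM + 1), where 3 were higher and 1 lower. NLRC5, its regulator, changed by 0.43 ± 0.05 and HLA-E by 0.43 ± 0.05, whereas B2M did not pass the test (-0.045 ± 0.06). HLA genes are polymorphic and alike, so their counts carry the added uncertainty of read assignment. For class II 5 genes rose on log2(TPM + 1) and the median was 0.16.

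Interferon-stimulated genes were mixed, 8 of 34 up and 7 down, with 3 higher and 9 lower on log2(TPM + 1) and 13 higher and 3 lower without the 10 most abundant genes. The shares that rose and fell, 23.5% and 20.6%, are near the 19.2% and 25.0% of all genes. OAS1 had 43.4, 41.1 and 41.6 CPM with DMSO and 63.1, 70.6 and 68.5 CPM at 150 nM (0.68 ± 0.054). MX1 had 73.8, 62.2 and 67.7 CPM with DMSO and 43.8, 45.7 and 38.9 CPM at 150 nM (-0.67 ± 0.071). These antiviral genes moved in opposite directions, with no overlap of groups in either. ISG15 (-0.18 ± 0.08) and IFIT1 (-0.15 ± 0.12) did not pass the test. In the JAK-STAT list 5 of 18 rose and 2 fell, with 2 higher and 4 lower on log2(TPM + 1). SOCS1, a feedback inhibitor, went from 24 ± 3.13 to 56.1 ± 5.9 CPM (1.22 ± 0.085), SOCS3 from 232 ± 24.9 to 168 ± 23.7 CPM (-0.47 ± 0.082) and STAT3 from 873 ± 34.7 to 791 ± 54.5 CPM (-0.14 ± 0.054). Of 24 surface antigens 9 rose and 3 fell (3 higher and 3 lower on log2(TPM + 1)), with CCR7, the lymph-node homing receptor, going from 79.9 ± 0.535 to 150.2 ± 11.2 CPM (0.91 ± 0.052). Among 13 elongation and BET genes 3 rose and 4 fell (5 higher and 1 lower without the 10 most abundant genes). Their shares, 23.1% and 30.8%, are also near those of all genes. HEXIM1, the inhibitor of P-TEFb, had 60.3, 69.9 and 70.4 CPM with DMSO and 104, 109.5 and 125 CPM at 150 nM (0.76 ± 0.068).

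At the limit of detection, 67 genes had at most 3 counts in each DMSO library and more than 3 in each 150 nM library, and 17 showed the reverse. Only 9 of the 67 had a mean of at least 1 CPM at 150 nM. Beside GDF15 and MT1H the most expressed were NPPC, a natriuretic peptide, with 5 and 194 counts (ratio 42.8, interval 18 to 133), EPHA2, a receptor kinase, with 6 and 127 counts (ratio 23.4, interval 10.4 to 64.9), and DRAXIN with 4 and 102 counts. These 95% intervals are exact, use the summed counts of each group and cover counting error only. The genes, GDF15 and MT1H included, were picked by these same counts, so a large ratio was to be found and the intervals are not independent support. Fibroblast markers summed to 3.87 to 4.54 CPM with DMSO and 11.8 to 16.1 CPM at 150 nM, with 2 of its markers called higher and LUM at or below 3 counts in every library. The myeloid marker LYZ (1.1 ± 0.36) and the erythroid marker HBA1 (1.32 ± 0.40) were also called higher, at low levels. Epithelial markers summed to 80.6 to 86 CPM with DMSO and 77.1 to 80.2 CPM at 150 nM, with none called. The part of other cells in any result was not tested.

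The 10 largest falls were ranked among called genes with no overlap between the groups and more than 3 counts in each library. A higher-group mean of at least 5 CPM was also asked. Without these conditions the largest fitted fall was -7.68. Several of the 10 were of genes whose counts are uncertain. SMN1, a near-identical copy of SMN2, had 44.3, 40.5 and 32.9 CPM with DMSO and 7.55, 13.9 and 9.92 CPM at 150 nM (-1.9 ± 0.51), and at 500 nM its libraries were at 4.68, 4.04 and 48.2 CPM. With DESeq2 the fall of SMN1 did not pass (adjusted p = 0.11). C7orf55-LUC7L2, a read-through of neighbouring genes, had 15, 4.32 and 4.73 CPM with DMSO and 2.39, 2.83 and 1.09 CPM at 150 nM (-1.96 ± 0.42), with DMSO library 1 far above the others; without it the change was -1.17. CHURC1-FNTB, another read-through, changed by -1.26 ± 0.23. MDK, the growth factor midkine, had 6.16, 8.19 and 8.05 CPM with DMSO and 3.7, 3.04 and 3.72 CPM at 150 nM (-1.1 ± 0.16). The rest of the 10 were CDC20, PLK1 and the histones HIST1H2AJ, HIST1H2BL, HIST1H2BH and HIST1H2BM described above.

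The 500 nM libraries place these values on a dose axis; both doses share the 150 nM libraries, so the contrasts are not independent. Between 150 nM and 500 nM 4409 genes changed (28.7%), 2111 higher and 2298 lower. CHAC1 went on to 28.7 ± 1.31 CPM (0.73 ± 0.098 against 150 nM), MT2A to 131 ± 14.2 CPM (2.14 ± 0.12) and HSPA6 to 216 ± 9.69 CPM (3.57 ± 0.18). Between the doses MT2A and HSPA6 had larger fitted changes than CHAC1, and the difference between genes was not tested. MT1X changed by 0.42 ± 0.11 up to 150 nM and by 2.0 ± 0.092 beyond, and MT1F by 0.58 ± 0.15 and 2.13 ± 0.12. LTA was at 51 ± 5.75 CPM at 500 nM and SREBF1 at 16.2 ± 0.999 CPM, and their changes between the doses, 0.098 ± 0.071 and -0.096 ± 0.084, did not pass the test.

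Of 15363 genes tested, 104 had a call at 150 nM and the opposite call between 150 nM and 500 nM. Of these 46 came after a rise and 58 after a fall, each with a mean of at least 5 CPM with DMSO or at 150 nM. The 150 nM libraries enter both contrasts with opposite sign, so spread in them alone can give opposite calls. CYP1A1, the xenobiotic-metabolising enzyme, had 9.21, 8.8 and 7.85 CPM with DMSO and 16.3, 17.5 and 18 CPM at 150 nM and 13.1, 14.8 and 13.4 CPM at 500 nM. TNF (-0.18 ± 0.054), MYL9, a myosin light chain (-1.17 ± 0.16), and GAS7 (-0.35 ± 0.068) also came down between the doses. Each of the 4 had treated libraries above every DMSO library at 150 nM. LOC100093631 met the same rule, but its rise rests on 1 library, with 0.571, 0.953 and 1.21 CPM with DMSO and 0.798, 30 and 0.943 CPM at 150 nM. Without treated library 2 its change was -0.0785.

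In OCI-Ly1 the same dose changed 139 of 15638 genes tested (0.889%). The difference between the lines was called for 3867 of 16604 genes (23.3%), 1383 with a change more positive in TMD8 and 2484 with one more negative. CHAC1, SESN2 and DDIT3 of the integrated stress response, and ASNS of asparagine synthesis, rose in both lines and more in TMD8. CHAC1 had 4.28 ± 0.757 CPM with DMSO and 14.4 ± 0.661 CPM at 150 nM in OCI-Ly1, a change of 1.74 ± 0.11, and the TMD8 change exceeded it by 3.38 ± 0.26 (adjusted p = 3.81e-09). ASNS changed by 0.52 ± 0.05 in OCI-Ly1 (difference 0.56 ± 0.078, adjusted p = 1.54e-05), SESN2 by 1.13 ± 0.079 (difference 1.86 ± 0.16) and DDIT3 by 0.67 ± 0.12 (difference 1.63 ± 0.19). Of the integrated stress response list 8 of 19 members rose in OCI-Ly1, and between the lines 12 of 20 had a change called more positive in TMD8 and 4 one called more negative. CDKN1A was called in both lines and its difference was not called: 1.16 ± 0.069 in OCI-Ly1, difference -0.099 ± 0.095 (adjusted p = 0.496). TFRC was likewise called in both, with 0.28 ± 0.044 and a difference of 0.067 ± 0.077 (adjusted p = 0.589). A difference that was not called does not show the lines to respond alike.

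For HSPA1A, RHOB, PLK1, MYC and GADD45A the TMD8 change was called, the OCI-Ly1 change was not, and the difference itself was called. HSPA1A had 5.8 ± 3.26 CPM with DMSO and 3.27 ± 0.539 CPM at 150 nM in OCI-Ly1 (-0.80 ± 0.30), a difference of 3.8 ± 0.46 (adjusted p = 2.68e-06). RHOB changed by 0.20 ± 0.28 there, a difference of 3.45 ± 0.36. PLK1 changed by -0.27 ± 0.064 in OCI-Ly1 (difference -0.88 ± 0.11, adjusted p = 6.3e-06), MYC by -0.078 ± 0.048 (difference -0.56 ± 0.08) and GADD45A by 0.032 ± 0.083 (difference 2.24 ± 0.17). Of the 38 mitotic genes 0 were called in OCI-Ly1 (edgeR), against 0.889% of all genes, and the list's median there was -0.029. For HSPA6 the difference between the lines of 4.15 ± 1.59 missed the threshold (adjusted p = 0.0598).

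**Figure D5:**
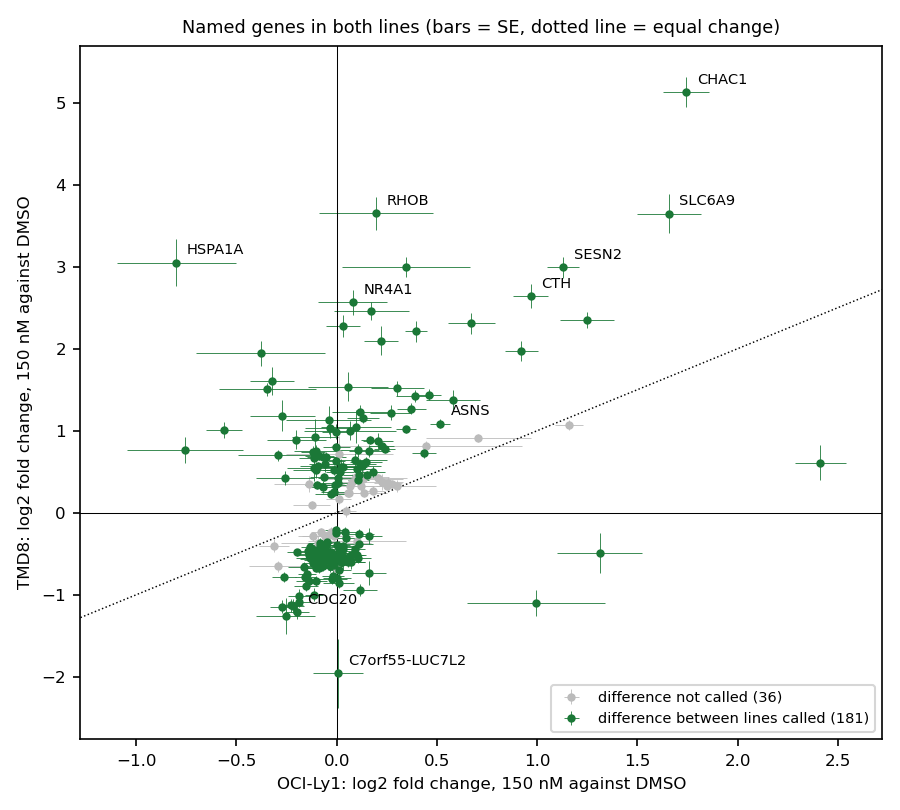
Log2 fold change at 150 nM against DMSO in OCI-Ly1 (horizontal) and TMD8 (vertical) for the 217 named genes with a standard error of at most 0.5 in both lines, with standard errors as bars. Green marks the 181 genes whose difference between lines was called and grey the other 36; the dotted line is an equal change, and CHAC1, SLC6A9, SESN2 and CTH lie to the right of 0 while still above that line.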

How the data were processed

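Bulk RNA-seq libraries of TMD8 and OCI-Ly1 cells were deposited as matrices of estimated counts and of TPM by gene symbol, 1 column per library. The authors used kallisto 0.46.0, R 4.3.1 and DESeq2 1.40.2 with the build hg19, per the submitters' processing notes, which give no order or role; the deposited TPM values are scaled within each library, per the values themselves. Of 23686 symbols, 15363 were tested in TMD8.

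Deposited estimated counts were rounded, filtered with filterByExpr by group, scaled by TMM and fitted with edgeR 4.0.16 (quasi-likelihood) in R 4.3.3, with 1 term per group over the 9 TMD8 libraries. P-values were adjusted by Benjamini-Hochberg over all genes tested, and a gene was called at adjusted p under 0.05. Adjusted p-values in the text are from this fit unless a setting is named. The difference between lines is an interaction term in a fit of all 18 libraries. TPM values were tested with limma 3.58.1 on log2(TPM + 1), and DESeq2 1.42.0 was a further alternative. Counts were also simulated with 200 genes of at least 5 CPM with DMSO changed in both directions and all other genes unchanged. On these the fit recovered 90.9% of 66 genes changed by 0.5 on the log2 scale and 100% of 67 changed by 1. In the data 44.2% of genes were called, so these shares do not measure recovery there.

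Genes were named by rule: the 10 largest rises and falls (no overlap between groups, over 3 counts per library, a higher-group mean of 5 CPM or more), the leading called members of each of 50 lists, 11 preset genes, the 5 most expressed genes silent with DMSO, the 5 largest differences between the lines in each direction, and the 5 largest that moved back. Other list members were named after their values were seen, and some genes that the rule or a list holds are not reported here. The comparison and the lists were chosen with earlier results of these data known. Promoter sequences are from RefSeq on GRCh38.p14, matched by symbol, and no coordinates of the authors' build are given. Library totals of 13706043 to 20509500 counts and 3 libraries per group set the precision.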

Additional observations from a re-analysis of the deposited data

Results flagged for a closer look

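The 10 genes below had the largest differences between the lines in their response to 150 nM, by the interaction term of the fit of all 18 libraries with Benjamini-Hochberg adjustment (edgeR). The change was more positive in TMD8 for 5. KLF15, a zinc finger transcription factor, differed by 3.94 ± 1.01 (adjusted p = 0.00542). In TMD8 it went from 18.2 ± 10.3 to 47.9 ± 15.1 CPM (1.38 ± 0.27, or 0.854 without DMSO library 1 and 150 nM library 3). HSPA1A differed by 3.8, RHOB by 3.45 and NEUROD2, a neuronal transcription factor, by 3.43 (adjusted p = 2.68e-06, 3.71e-07 and 0.00866). Without OCI-Ly1 DMSO library 2 the differences of KLF15 and NEUROD2 were 1.69 and 1.13 and were not called (adjusted p = 0.302 and 0.0933), so both rest on that library. NEUROD2 was also not called on log2(TPM + 1), at 1.03 (adjusted p = 0.18). CHAC1 differed by 3.38 (adjusted p = 3.81e-09), with a rise in both lines.

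The change was more negative in TMD8 for the other 5. C1orf95 differed by -4.08 (adjusted p = 0.0167); its libraries were at 96.4, 189.7 and 8.45 CPM with DMSO and 8.85, 6.98 and 15.8 CPM at 150 nM in TMD8, so the DMSO libraries disagreed widely among themselves. Without OCI-Ly1 150 nM library 3 its difference was -2.73 and not called (adjusted p = 0.247). SMN1 differed by -2.01, C7orf55-LUC7L2 by -1.97, ROCK1P1 by -1.81 and EIF3CL by -1.81 (adjusted p = 0.00735, 0.00231, 2.72e-05 and 0.000603). ROCK1P1 did not fall in TMD8, where its change was positive and called in the main fit. That call was lost with DESeq2 (0.609, adjusted p = 0.0977) and on log2(TPM + 1) (0.149, adjusted p = 0.0856). SMN1, EIF3CL and ROCK1P1 have near-identical copies in the genome, and C7orf55-LUC7L2 is a read-through of neighbouring genes. On log2(TPM + 1) C1orf95, SMN1 and C7orf55-LUC7L2 were not called, at -2.18, -1.99 and -1.01 (adjusted p = 0.0598, 0.0535 and 0.0549). Without DMSO library 1 and 150 nM library 3 of TMD8 SMN1 was at -1.85 (adjusted p = 0.0638) and C7orf55-LUC7L2 at -0.788 (adjusted p = 0.13), and without DMSO library 1 alone the C7orf55-LUC7L2 difference between the lines was -1.19. How reads were divided among such copies was not tested.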

How the results depend on the processing

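Against 2955 higher and 3835 lower genes, DESeq2 gave 2294 and 3248, and the fit without DMSO library 1 and 150 nM library 3, chosen after seeing the data, 2861 and 2904. On log2(TPM + 1) and log2(TPM + 0.1) 1129 and 1204 genes were higher, and without the 10 most abundant genes, also chosen after seeing the data, 2028 were lower. Against 558 genes called and changed by at least 1, there were 123 on log2(TPM + 1), 308 on log2(TPM + 0.1), 115 on centred values and 225 without the 10 most abundant. Against 2111 genes higher and 2298 lower at 500 nM than at 150 nM, DESeq2 gave 1403 higher, log2(TPM + 1) 464 and 3980, log2(TPM + 0.1) 422 and 4146, and leaving out the 2 libraries 3466 lower. Against 1383 and 2484 genes whose change was more positive or more negative in TMD8, log2(TPM + 1) gave 595 and log2(TPM + 0.1) 586 more positive, leaving out the 2 libraries 876 and 1367, and leaving out the 10 genes 2186 and 1336. Leaving out 1 library in turn gave 2510 to 2965 higher, 2751 to 3846 lower and 471 to 699 changed by at least 1. Between doses it gave 1585 to 2180 and 1688 to 2773, and between lines 965 to 1479 and 1803 to 2637. LOC100093631 ranged from -0.0785 (without 150 nM library 2) to 4.08 (without 150 nM library 3). Same-numbered libraries had correlations of their deviations from -0.0545 to 0.141, and differently numbered ones from -0.19 to 0.105. The highest, 0.141 and 0.125, were between DMSO and 150 nM libraries of the same number. The labels do not say that a number marks a shared culture or day, so the main fit has no block. With the replicate block the counts were 2986 and 3841, 567 by at least 1, 2189 and 2393 between doses and 1483 and 2673 between lines. Of 242 named genes called, the replicate block lost 0, DESeq2 3 of 241, log2(TPM + 1) 28, leaving out the 10 genes 14 and leaving out the 2 libraries 7. The cause was not tested.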

Other observations

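Smaller lists not described above moved as follows at 150 nM in TMD8, by edgeR's quasi-likelihood test. Tubulins, which form the spindle, had 11 of 17 members lower and 2 higher (median -0.25); their copies are alike, so counts of single members are uncertain. Of 23 genes of homologous recombination and Fanconi anaemia 8 fell and 1 rose. Autophagy and lysosome genes had 5 of 20 higher and 2 lower, and adhesion and co-stimulation genes 7 of 18 higher and 8 lower. Small nucleolar RNA host genes had 3 of 14 higher and 5 lower. Without the 10 most abundant genes, on log2(TPM + 1), the counts higher and lower were 2 and 7 for tubulins, 3 and 0 for recombination, 12 and 1 for autophagy and lysosome, 7 and 3 for adhesion and 6 and 3 for the host genes. Over all genes tested 19.2% rose and 25.0% fell.

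A set of structured RNAs together with small nucleolar RNA host genes held 1.65% to 1.83% of all counts with DMSO and 2.46% to 2.68% at 150 nM. The set was RN7SK, RN7SL1, RN7SL2, RPPH1, RMRP and the SNOR and SNHG symbols, without MIR3687. Cytosolic ribosomal proteins held 7.29% to 7.73% with DMSO and 7.51% to 7.66% at 150 nM. Plasma-cell markers summed to 433 to 455 CPM with DMSO and 487 to 509 CPM at 150 nM, mostly from PRDM1; SDC1, at 2.03, 2.58 and 2.26 CPM with DMSO and 5.59, 7.53 and 8.38 CPM at 150 nM, rose (1.66 ± 0.16, adjusted p = 4.94e-07), and MZB1, IGJ and TNFRSF17 were not called. NK-cell markers summed to 15 to 16.9 and 15.8 to 18.8 CPM.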
